A study of Homo sapiens with 6 samples.

Results

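Some H3K4me2 regions that were separate in vehicle-treated LNCaP cells lay under 1 region after 24 h of treatment with the LSD1 inhibitor GSK2879552. To describe these fused places, each record (1 called region of a peak list) of the GSK 24 h list on chromosomes 1 to 22 was taken when it overlapped at least 2 separate vehicle records by 1 bp or more. This selected 5735 of the 123292 GSK 24 h records on these chromosomes (128552 on all sequences). The fused records were chosen by the start and end positions of the vehicle and GSK 24 h records. What these 2 lists show of the fused places is therefore a description, and the GSK 4 h list is the only one that the choice did not use.

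The mark was profiled with ChIP-seq (sequencing of immunoprecipitated chromatin). LNCaP is a line of prostate cancer cells that respond to androgen. All cells had spent 3 days in medium with 5% charcoal-stripped serum, which is depleted of hormones. The 3 groups were vehicle without GSK2879552, GSK 4 h and GSK 24 h, and the labels of both GSK groups also name the androgen DHT, so that the inhibitor and the androgen cannot be told apart. Each group had 2 replicates from which 1 peak list was made, so no value has a replicate error and no difference between groups was tested. Nothing in the labels says that the replicates were separate cultures, and both replicates of a group carry the same index pair.

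H3K4me2 is a dimethylation of histone H3 found at enhancers and around active promoters. It usually flanks the nucleosome-poor stretch where transcription factors bind, so that 1 regulatory element can appear as a pair of marked stretches with a dip between them. LSD1 (KDM1A) removes the mono- and dimethyl marks of H3K4, often within the CoREST and NuRD repressor complexes, and in prostate cancer cells it also works as a coactivator of the androgen receptor. GSK2879552 is an irreversible LSD1 inhibitor.

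A gap between records is a stretch where the signal did not pass the threshold of the peak caller, MACS2. The narrowest gap was 52 bp in all 3 lists. The lists were close in depth. The background came to 9.43 tags per kb in the vehicle list, 10.1 at 4 h and 8.98 at 24 h. The shortest record was 221, 186 and 219 bp, respectively. Summit height below is the number of fragments at the summit, recovered from the fold enrichment and p-value of the record, divided by the genome-wide background of its own list. All records of a list had a median height of 11.04 in vehicle, 11.2 at 4 h and 10.7 at 24 h.

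The fused records made up 4.65% of the GSK 24 h records, and the opposite event was at least as frequent. In the vehicle list, 6087 of 97240 records (6.26%) overlapped at least 2 GSK 24 h records. At 4 h, 5360 GSK records (4.31%) overlapped at least 2 vehicle records, and 6773 vehicle records (6.97%) overlapped at least 2 GSK 4 h records. Between the GSK lists, 7642 GSK 24 h records (6.2%) overlapped at least 2 GSK 4 h records, and 6279 GSK 4 h records (5.05%) overlapped at least 2 GSK 24 h records. Fusion and splitting thus occurred in every pair of lists, in both directions.

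Nearly all fused places were pairs. Of the 5735 fused records, 5536 (96.5%) held 2 vehicle records, 192 held 3 and 7 held 4. Together they took in 11650 vehicle records, which is 12.0% of the vehicle list on these chromosomes. At these vehicle records lay 8232 GSK 4 h records and 6697 GSK 24 h records, the fused ones among them. The total length of the records was 5902 kb in vehicle, 6095 kb in GSK 4 h and 6696 kb in GSK 24 h. Since the fused records had to hold at least 2 vehicle records each, the low number at 24 h follows from the rule. The length at 24 h includes 987 kb of vehicle gaps that the rule made the fused records span, so the lengths cannot be compared between the lists.

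The joined gaps were narrow. The median of the 5941 gaps was 130 bp (interquartile range 80 to 215 bp), with 36.4% under 100 bp and 71.4% under 200 bp, and only 144 (2.42%) were 500 bp or wider. The summits of the outermost vehicle records of a fused place were a median of 619 bp apart. Vehicle records at most 1000 bp apart that no GSK 24 h record joined had a median gap of 338 bp and neighbouring summits 886 bp apart.

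A fused record was 1040 bp long at the median, against 1096 bp from the first to the last base of its vehicle records, and 40.6% of the fused records were longer than that span. The fused record reached past the span at one end in 54.0% of places, at both ends in 20.1% and at neither in 25.9%. The outer ends lay outside the vehicle ends in 47.1% of cases, with a median shift of -7 bp (a negative shift is inward). In the places where no vehicle record reached into another GSK 24 h record, 50.4% of 9580 ends lay outside, with a median shift of 2 bp. The 66932 GSK 24 h records that matched 1 vehicle record each, and no other, had their ends shifted outward in 61.1% of cases, by a median of 27 bp. The rule used these positions, so the values are a description. Summed over all fused places, 987 kb of gap and 585 kb past the outer ends were gained, while 1296 kb of vehicle records at the outer ends were left out. In 4040 fused records (70.4%), at least 50% of every vehicle record was taken in. In 945 (16.5%), a vehicle record also reached into another GSK 24 h record.

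The most fragmented of the fused places had 4 vehicle records each. At chr4:146857207-146860290 (hg19), the vehicle records had heights of 23.5, 23.0, 88.3 and 24.95. Both GSK lists held a single record there, of 3092 bp and height 34.0 at 4 h and of 3084 bp and height 32.6 at 24 h, and neither reached the height of the tallest vehicle record. At chr16:3200774-3202518, the 4 vehicle records had heights of 41.7, 25.4, 28.3 and 24.5. The GSK 4 h list held 2 records there (53.7 and 45.2) and the GSK 24 h list the fused record (46.8) and a second one (29.5) at the last vehicle record. At chr7:72569495-72571293, the first vehicle record was the tallest (91.2) and ended inside the GSK 24 h record, whose height was 37.1. Another GSK 24 h record, of height 50.4, lay over the start of that vehicle record. The stretch between these GSK 24 h records, which held the summit of the vehicle record, lay under neither. At 4 h, 2 records of heights 47.3 and 43.6 lay there.

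**Figure D1:**
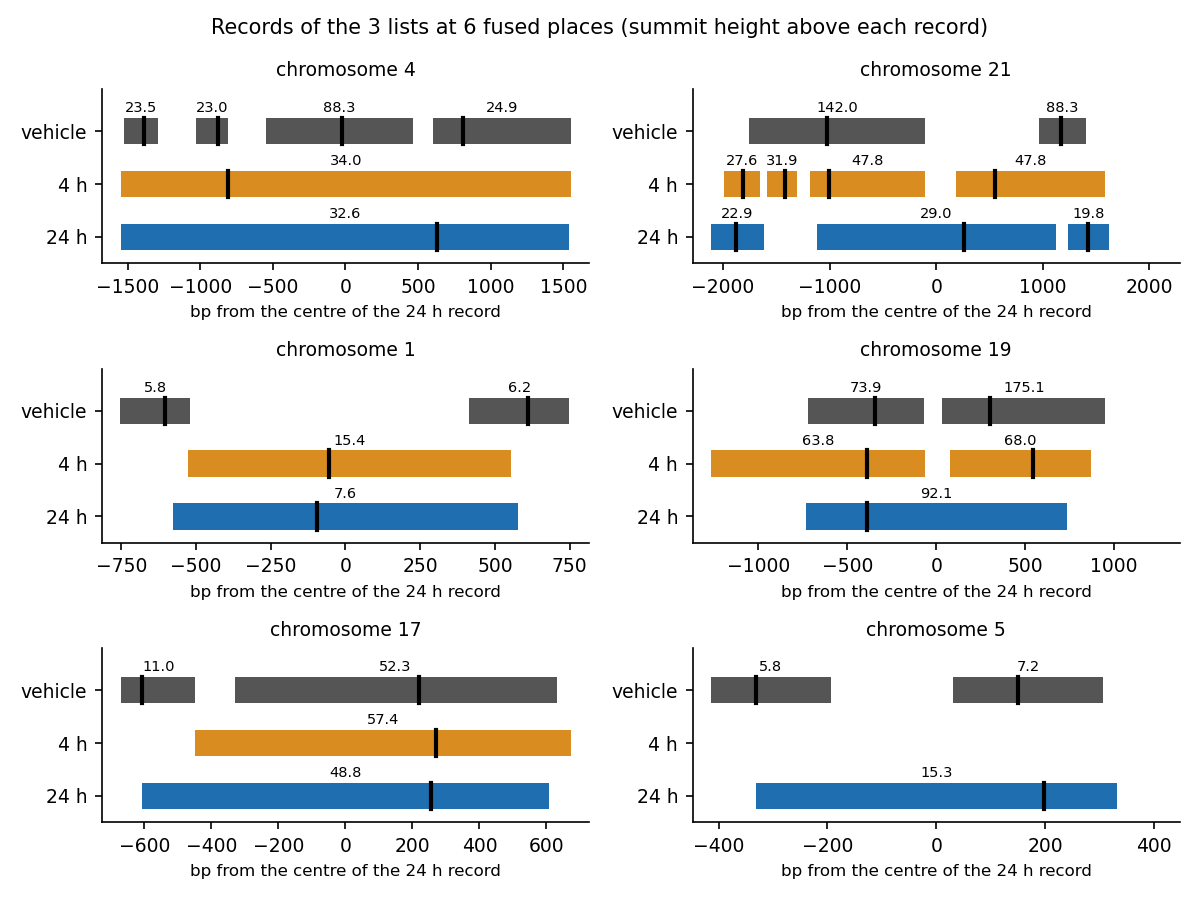
Records of the vehicle (grey), GSK 4 h (orange) and GSK 24 h (blue) lists at fused places named in the text, with the distance from the centre of the GSK 24 h record (bp) on the x axis, a black line at each summit and the summit height (times the genome-wide background) above each record. The fused record spans all vehicle gaps in each panel, with further GSK 24 h records at its sides on chromosome 21, while the 4 h list holds 1 long record on chromosome 4, separate records on chromosomes 19 and 21, and none on chromosome 5.

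The widest joined gap measured 1072 bp and lay at chr21:38071511-38073750. The vehicle records beside it were among the tall ones, with heights of 142 and 88.3, and the fused record had a height of 29.0, with its summit inside the former gap. It left out the outer parts of both vehicle records, where other GSK 24 h records of heights 22.9 and 19.8 lay. The GSK 4 h list held 4 separate records there, with heights from 27.6 to 47.8. All GSK records there were lower than both vehicle records. The next widest gap, 988 bp at chr3:175178395-175179955, was flanked by weak vehicle records of heights 6.24 and 4.80. A GSK 4 h record of height 6.38 lay at the first of them, and the GSK 24 h record had a height of 9.66. At chr1:24446022-24447177, a gap of 933 bp lay between vehicle records of heights 5.76 and 6.24. It was filled in both GSK lists, by a record of height 15.4 at 4 h and of 7.63 at 24 h, whose summits were 40 bp apart.

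The strongest fused records by p-value had tall vehicle records as well. At chr19:51842368-51843833, the vehicle heights were 73.9 and 175, the 4 h heights 63.8 and 68.0 in 2 separate records, and the 24 h height 92.1 in 1 record (fold enrichment 9.63, -log10 q 108). The summit moved from the taller vehicle record to the lower one. At chr10:42596717-42598591, the gap was only 53 bp and the heights were close, at 138 and 101 for vehicle, 139 and 90.9 at 4 h, and 148 at 24 h. These heights are set against the genome-wide background. Over the background at its own summit, the fold enrichment of the fused record was only 4.32 (percentile 39.2 of its list). The GSK 4 h list also had 2 records there, 1 of which overlapped both vehicle records, so this place counts as joined at 4 h although a gap remained. At chr8:95907618-95908574, the vehicle heights were 75.3 and 119 and the fused record had a height of 76.3, beside 3 other GSK 24 h records of 30.0, 19.3 and 19.8. At 4 h, 3 records lay there (52.6, 88.2 and 37.7), the middle one over both vehicle records.

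To follow the same places at 4 h, each fused place was classed by the GSK 4 h records at its vehicle records. In 3176 of the 5735 places (55.4%, 95% Wilson interval 54.1 to 56.7) 1 GSK 4 h record overlapped all of the vehicle records. In 1595 places (27.8%) the GSK 4 h list held separate records at the vehicle records. Only 1 of the vehicle records was overlapped in 784 places (13.7%), and 83 (1.45%) had no GSK 4 h record. In 97 places (1.69%), called partly joined, a GSK 4 h record joined neighbouring vehicle records but no single record overlapped all of them. Of the 3176 joined places, 659 held further GSK 4 h records, and 2517 (43.9% of all) held a single GSK 4 h record and nothing else. The intervals cover counting error only. With the GSK 4 h records widened by 17 bp on each side, to allow for the shorter minimum length in that list, 57.3% were joined.

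These shares cannot be read as support for fusion at 24 h, because both GSK lists are set against the same vehicle list. All vehicle neighbours at most 1000 bp apart give the background. Of these 21131 gaps, 28.1% (5940) were joined at 24 h and 26.3% (5559) at 4 h. This order turned round when records under a -log10 q of 10 were left out, to 16.5% at 24 h and 19.5% at 4 h. Both GSK lists joined 3346 gaps (15.8%), the GSK 4 h list alone joined 2213 (10.5%), the GSK 24 h list alone joined 2594 (12.3%), and neither joined 12978 (61.4%). The same count was made with each list in turn as the one with the gap. Among gaps of the GSK 4 h list, 3350 were joined in both other lists, and among gaps of the GSK 24 h list 3291 were. These were 10.7% and 11.4% of the close gaps of their own list, below the 15.8% (15.3 to 16.3) of vehicle gaps. Gaps of 1 list that both others join were thus similar in number whichever list held the gap. As a share of all close gaps, they were more frequent in the vehicle list. These shares do not allow for gaps that lack records of another list at a side, which cannot be joined. The vehicle list had records at 1 side of 31.6% of GSK 4 h gaps and at neither of 11.3%. For GSK 24 h gaps, these were 29.1% and 11.6%. At vehicle gaps, the values were 18.9% and 3.03% for the GSK 4 h list, and 18.1% and 2.70% for the GSK 24 h list.

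The state at 4 h followed the width of the gap. Among fused places whose widest gap was under 100 bp, 68.5% (1405 of 2050) were joined at 4 h and 16.6% were separate. At 200 to 299 bp, 42.2% (427 of 1013) were joined and 40.0% were separate. At 500 to 749 bp, 27.6% (35 of 127) were joined and 57.5% were separate. Over all vehicle gaps, fused or not, the GSK 4 h list joined 59.1% under 100 bp, 24.7% at 200 to 299 bp and 4.2% at 500 to 749 bp, so the share also fell with width there. The median widest gap was 108 bp for the places joined at 4 h and 187 bp for those separate at 4 h.

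**Figure D2:**
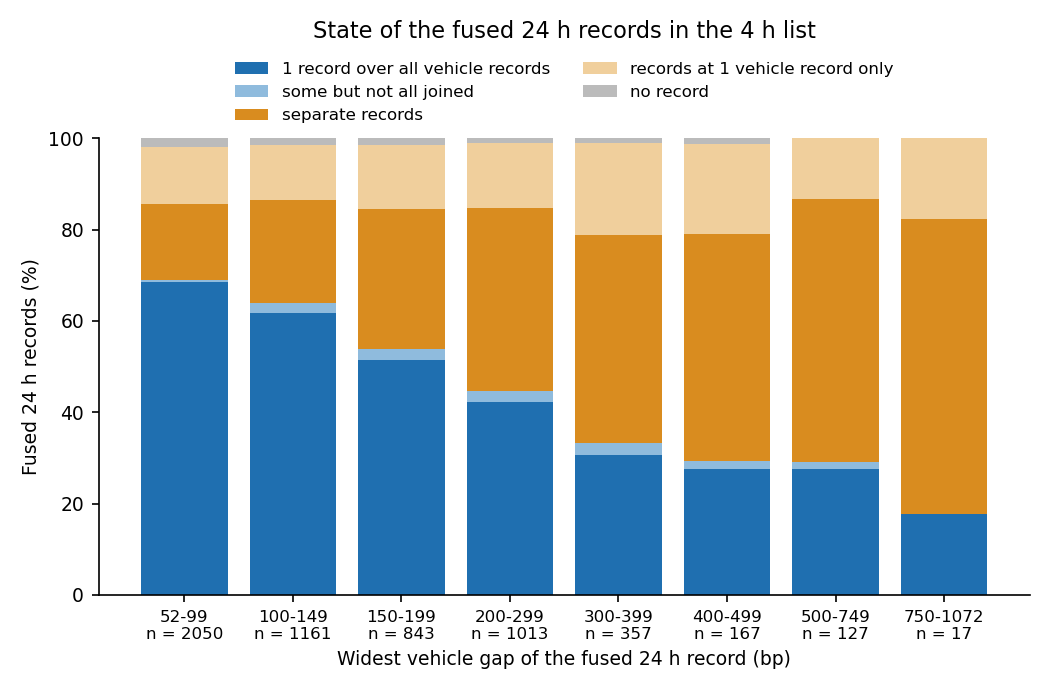
Share of the fused GSK 24 h records (y axis, %) in each state in the GSK 4 h list, by the widest vehicle gap they span (x axis, bp, with the number of fused records). The share with 1 GSK 4 h record over all vehicle records fell from 68.5% under 100 bp to 17.6% of 17 records at 750 bp and wider.

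The GSK 24 h height had a median of 17.8 in places joined at 4 h and 17.3 in places separate at 4 h, and the tallest vehicle record had a median of 14.4 and 13.4. Lower medians were found in places with a GSK 4 h record at only 1 vehicle record (12.7 at 24 h and 10.08 in vehicle) or at none (9.66 and 6.72). At chr5:156097479-156098141, which had no GSK 4 h record, vehicle records of heights 5.76 and 7.20 were followed by a GSK 24 h record of 15.3 (fold enrichment 9.79, percentile 97.5 of its list). At chr3:84635157-84636222, also without a GSK 4 h record, the heights were 4.80 and 8.64 in vehicle and 15.8 at 24 h.

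Among the places with a GSK 4 h record at 1 vehicle record only, the strongest by p-value had a tall vehicle record beside a lower one. At chr1:148760596-148761750, the vehicle heights were 61.4 and 18.2, and the record over the first had a height of 70.1 at 4 h and 68.7 at 24 h. At chr17:37182874-37184087, they were 11.04 and 52.3, followed by 57.4 at 4 h and 48.8 at 24 h. Among the places partly joined at 4 h, chr7:151572245-151575105 had vehicle heights of 41.7, 128 and 171, which were followed by 48.9 and 76.5 in 2 GSK 4 h records and by 52.9 in the GSK 24 h record. At chr19:56602000-56604352, also partly joined, the heights were 16.3, 39.3 and 34.1 in vehicle, 52.6 at 4 h and 46.3 at 24 h. Among the places separate at 4 h, chr1:155162947-155165430 had vehicle heights of 74.9 and 133, GSK 4 h heights of 74.4 and 68.5, and a GSK 24 h height of 76.3.

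Narrow vehicle gaps were joined at 24 h more often than narrow GSK 24 h gaps were joined in vehicle, and wide ones less often. Of the vehicle gaps under 100 bp, 64.3% (62.6 to 65.9) were joined at 24 h, whereas vehicle records joined 39.9% (38.5 to 41.3) of the GSK 24 h gaps of that width. From 200 to 299 bp, it was 26.1% against 19.5%. From 300 to 399 bp the shares were close, at 13.9% (12.6 to 15.3) and 15.2% (14.0 to 16.5). The intervals hold counting error within 1 list only and do not test a difference between groups. At 500 to 749 bp the order was reversed, with 4.17% (3.51 to 4.93) of vehicle gaps joined at 24 h and 10.1% (9.19 to 11.04) of GSK 24 h gaps joined in vehicle. From 750 to 1000 bp, it was 0.956% against 5.54%. Of the GSK 4 h gaps, vehicle records joined 43.6% under 100 bp and 4.39% at 500 to 749 bp. In all these shares, a gap without records of the other list at both sides counts as not joined. How often this occurred was not counted by width.

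**Figure D3:**
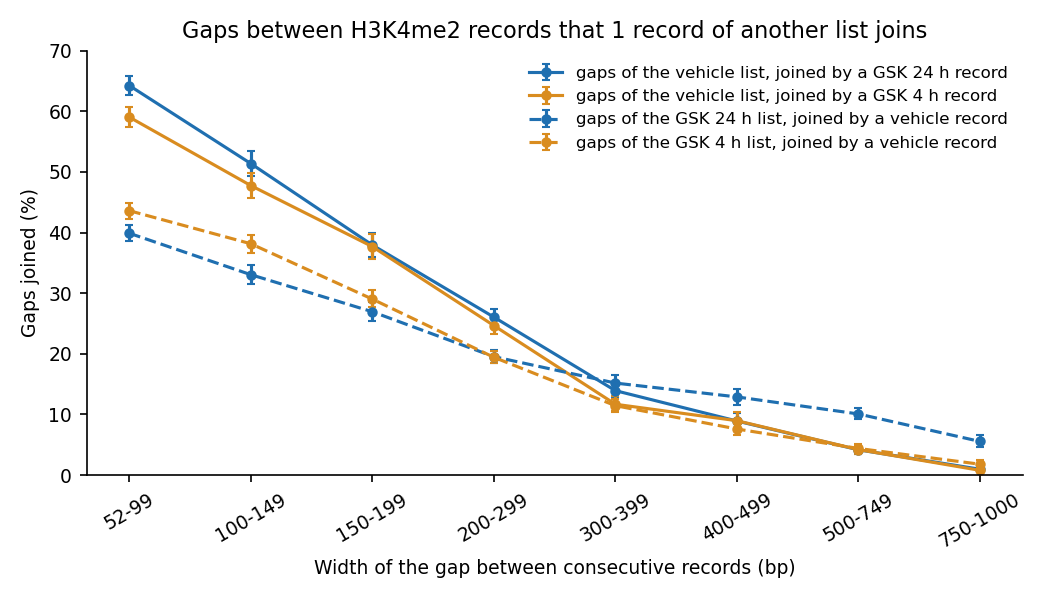
Share of gaps (y axis, %) between consecutive records of a list that 1 record of another list joins, by gap width (x axis, bp), with 95% Wilson intervals as bars. Solid lines are gaps of the vehicle list and dashed lines gaps of a GSK list. The blue lines cross between 200 and 400 bp, so that vehicle gaps were joined more often than GSK 24 h gaps below this width and less often above it.

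Over all widths up to 1000 bp, 28.1% of vehicle gaps were joined at 24 h, against 21.9% (6325 of 28928) of GSK 24 h gaps joined in vehicle. A gap could only be joined where the other list had a record at both sides. The vehicle list had records at a single side of 29.1% of the GSK 24 h gaps and at neither side of 11.6%. For vehicle gaps, the GSK 24 h values were 18.1% and 2.70%. With records at both sides, 5940 vehicle gaps were joined and 10786 separate, against 6325 and 10815 GSK 24 h gaps. Among these, the share joined was thus not higher for vehicle gaps. The order over all gaps also depended on the threshold of the lists. Among records with a -log10 q of at least 5 the shares were close, at 24.3% and 25.35%. At 10 or more the order was the opposite, with 16.5% (15.6 to 17.5) and 32.7% (31.6 to 33.7). The vehicle records that split over GSK 24 h records were tall, with a median height of 32.6, against 13.4 for the tallest vehicle record of the fused places.

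Gaps between low vehicle records were joined at 24 h more often than gaps between tall ones. The 21131 vehicle gaps were ranked by the taller of their 2 vehicle records and divided into 5 steps of about 20% each. For gaps of 52 to 149 bp, the share joined at 24 h was 66.5% (63.9 to 68.9) in the lowest step and 40.9% (37.9 to 44.0) in the highest. The GSK 4 h list joined 54.7% (52.1 to 57.3) of such gaps in the lowest step and 47.5% (44.4 to 50.6) in the highest. For gaps of 150 to 299 bp, the 24 h share went from 40.0% to 22.8%, while the 4 h share was 30.1% in the lowest and 29.8% in the highest step. Gaps of 300 bp and wider did not keep this order, with 11.1% joined at 24 h in the lowest step, 3.39% in the next to highest and 9.32% in the highest. In the lowest step the GSK 24 h list thus joined more gaps than the GSK 4 h list, and in the highest step it joined fewer, in all 3 width classes.

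**Figure D4:**
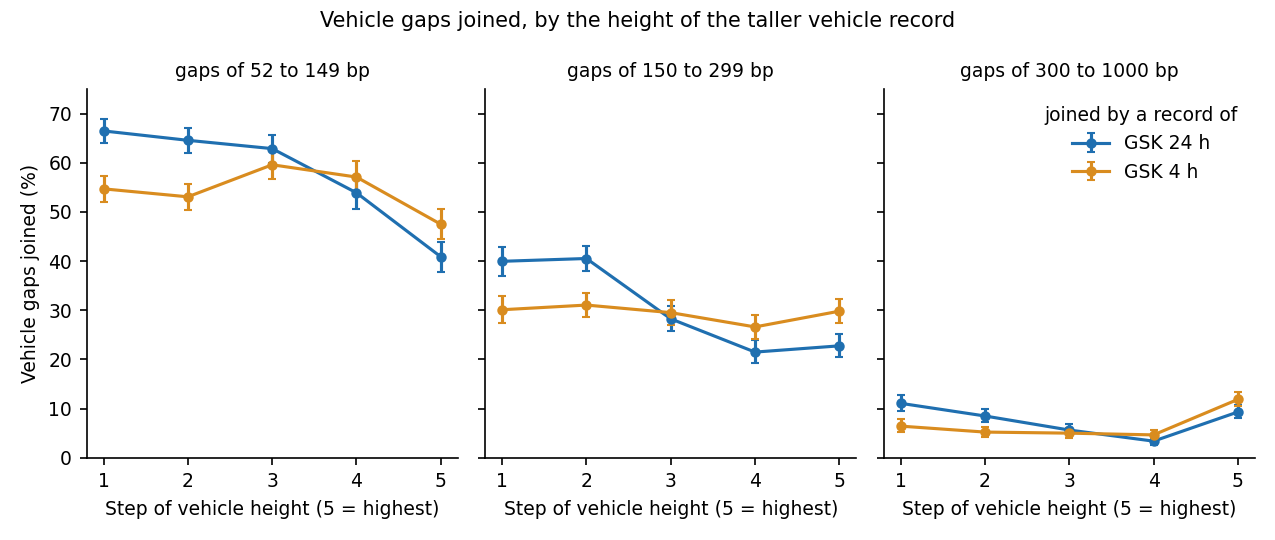
Share of vehicle gaps (y axis, %) joined by a GSK 24 h record (blue) or a GSK 4 h record (orange), by the step of about 20% in which the taller of the 2 vehicle records falls (x axis, 1 is lowest and 5 highest), in 3 classes of gap width. Bars are 95% Wilson intervals, and the blue points lie above the orange ones in step 1 and below them in steps 4 and 5.

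The summit of the fused record lay inside a vehicle record in 5223 of 5735 places (91.1%), inside a gap in 442 (7.71%) and outside the vehicle records in 70 (1.22%). By the rule, each fused record covers parts of at least 2 vehicle records. Of the 6197 kb of fused records, 987 kb lay in gaps and 585 kb past the outer ends, so most of their length lay in vehicle records. In 3720 places (64.9%) it lay in the tallest vehicle record, where vehicle records of level height, found in 265 places, all counted as tallest. The nearest of its 2 or more vehicle summits was a median of 73 bp away. In the 3176 places joined at 4 h, the GSK 4 h and GSK 24 h summits were a median of 161 bp apart, and 38.2% were within 100 bp of each other.

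To set both times side by side, the highest of all records at the vehicle records of a place was taken in each GSK list, a choice made after seeing the data. In places whose tallest vehicle record was at least 2 times as high as the lowest, its summit lay in that tallest record in 76.1% (73.6 to 78.5) at 24 h and in 81.3% (78.9 to 83.5) at 4 h, with 1140 places each. Where the vehicle records were within 1.2 times of each other, the values were 57.1% (54.8 to 59.4) and 54.7% (52.3 to 57.0). In the 25% of places with the tallest vehicle records, they were 66.7% (64.2 to 69.1) at 24 h and 71.5% (69.1 to 73.8) at 4 h. In the places joined at both times, the summit of the fused record lay in the tallest vehicle record in 63.9%, and that of the highest GSK 4 h record in 64.3%. Only the 24 h records were chosen to span a gap, so the times are not on an equal footing.

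The fused records were of more than median strength within the GSK 24 h list. Their median fold enrichment was 5.43 (4.72 for the list), their median fold percentile 65.8, their median -log10 q 13.6 (8.18 for the list) and their median height 16.8 (10.7 for the list). The list also holds records that overlap no vehicle record, which the rule leaves out. GSK 24 h records matched 1 to 1 with a vehicle record had a median height of 13.7. The vehicle records they took in were unequal. The median of the tallest was 13.4 in height and 12.0 in -log10 q, and that of the lowest was 9.12 in height and 5.31 in -log10 q, against 11.04 and 8.96 for the vehicle list. The tallest vehicle record was 1.38 times as high as the lowest at the median, and up to 7.73 times.

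Relative to the tallest vehicle record, the height of the fused record was 1.18 at the median (interquartile range 0.928 to 1.43), and 3950 places (68.9%) were higher at 24 h. All records matched 1 to 1 between GSK 24 h and vehicle had a similar ratio of 1.12 (0.901 to 1.36), so a ratio above 1 was not particular to fused places. With the highest of all GSK 24 h records at the place, the ratio was 1.19 (0.949 to 1.43). The highest GSK 4 h record was 1.23 times as high at the median (0.941 to 1.53), in the 5652 places that had one. The ratio of the highest record fell with vehicle height. In the lowest 25% of places, where the tallest vehicle record had a height of 4.80 to 8.16, it was 1.44 at 24 h and 1.50 at 4 h. In the highest 25%, with heights of 24.5 to 196, it was 0.810 (0.417 to 1.06) at 24 h and 0.848 (0.523 to 1.17) at 4 h. The records matched 1 to 1 between GSK 24 h and vehicle had ratios of 1.26 and 0.859 over the same 2 ranges. Grouping and ratio share the vehicle height, so the fall of the ratio is not independent of the grouping.

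**Figure D5:**
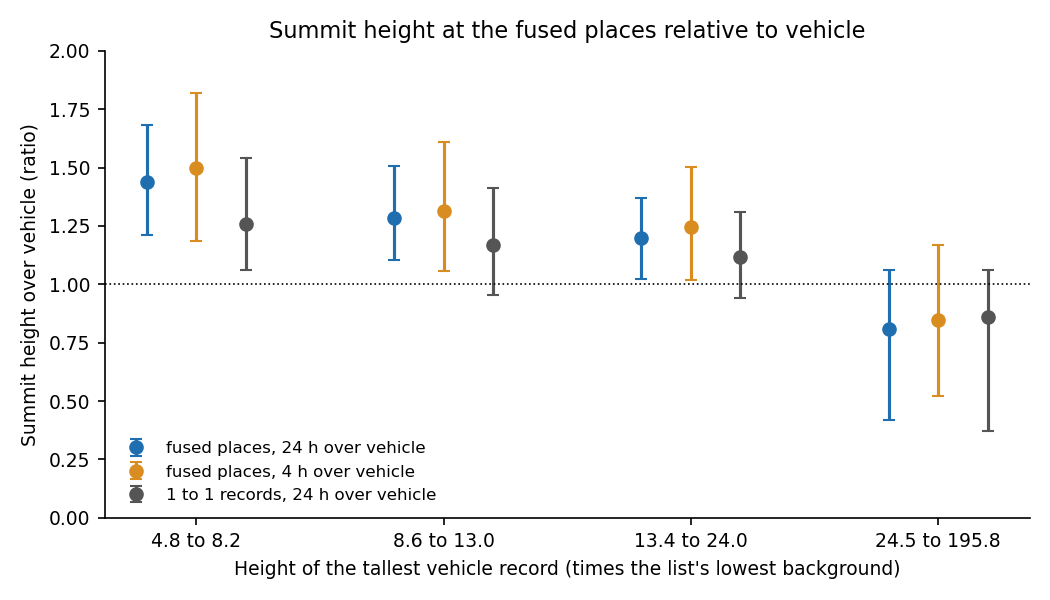
Summit height relative to vehicle (y axis, ratio) at the fused places, by the height of their tallest vehicle record (x axis, in 4 groups of about 25% of the places), with points at the median and bars over the interquartile range. Blue is the highest GSK 24 h and orange the highest GSK 4 h record at the fused places, and grey is GSK 24 h at records matched 1 to 1 of the same vehicle height. In each colour the medians are above 1 in the 3 lower groups and below 1 in the highest.

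Fused places were found on all 22 chromosomes, from 75 on chromosome 21 to 567 on chromosome 1. The share of close vehicle gaps joined at 24 h ranged from 19.6% (17.4 to 22.1) on chromosome 19 to 32.2% (29.3 to 35.1) on chromosome 8. At 4 h, it ranged from 24.0% on chromosome 19 to 29.2% on chromosome 18. As a share of GSK 24 h records, fused records were not rare on chromosome 19, with 5.15%, against 4.65% over chromosomes 1 to 22. Chromosome 19, which is rich in genes and zinc finger gene clusters, had taller vehicle records beside its gaps (median height 32.1, against 16.8 on the other chromosomes) and slightly wider gaps (279.5 against 257 bp). Below a height of 37.9, 54.3% (46.6 to 61.8) of its gaps under 150 bp and 2.44% (1.19 to 4.95) of those of 300 bp and wider were joined. On the other chromosomes these shares were 63.0% (61.6 to 64.4) and 6.93% (6.36 to 7.55). From that height upward, 42.9% (33.5 to 52.7) of the gaps under 150 bp and 3.08% (1.50 to 6.23) of those of 300 bp and wider were joined on chromosome 19. Elsewhere these were 40.7% (37.5 to 43.9) and 10.1% (8.81 to 11.7). In these tall records the intervals overlapped for gaps of 150 to 299 bp as well, and were apart for the wide gaps. The chromosomes were compared after their values were seen.

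The rule has a sharp edge at 1 bp of overlap. In 79 fused places the least overlapped vehicle record was covered by 10 bp or less, and in 5 of them by 1 bp. Of these 5, the named ones were chr14:103481826-103483077, with vehicle heights of 9.12 and 25.4 and a GSK 24 h height of 29.0, and chr8:102575884-102576517, with 6.24 in both vehicle records and 11.7 at 24 h, beside another GSK 24 h record of 11.2. Outside the rule, 114 GSK 24 h records with 1 vehicle record lay less than 10 bp from another, and 10 of these touched it. Of the 10, the named ones were chr16:70473154-70473796, with a GSK 24 h height of 38.1, and chr12:51318709-51319854, with 33.6. Genes and sequences at the fused places were not analysed here, since no annotation or genome of the hg19 build was used.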

How the data were processed

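H3K4me2 ChIP-seq was deposited as 1 peak list per group (vehicle, GSK 4 h, GSK 24 h), made from both replicates, so the 6 samples give 3 lists. The submitters' processing notes name BWA 0.7.2-r351, SAMtools 0.1.18, MACS2 2.0.10.20131216 and hg19, and the settings are not given in the sources used here. The deposited columns used are the position and summit, the fold (the ratio of signal to background at the summit), and the -log10 values of p and q. The deposited display score was not used. Whether the lists were scaled to each other is not stated.

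Overlaps of 1 bp or more on chromosomes 1 to 22 were counted in Python 3.11.15 (numpy 2.4.6, pandas 2.3.3, scipy 1.17.1). Start positions are printed counted from 1. Close gaps are those of at most 1000 bp. A summit pileup was the whole number for which the fold enrichment equals (pileup + 1)/(background + 1) and the Poisson p-value equals the deposited one, within 0.001 on the -log10 scale. It was found for all but 2 vehicle records and for all GSK records. Dividing it by the lowest background of the list gave the height, and dividing that background by the shortest record gave the depth. Shares have 95% Wilson intervals for counting error only. Steps were tested on simulated data.

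The regions named were the 3 fused records with the most vehicle records, the 3 with the widest gap, the 3 with the highest 24 h -log10 p, the 2 highest in each class at 4 h, and the 2 nearest to the rule's edge on either side. 3 alternatives, and the highest GSK 24 h record at a place, were added after seeing the data. The members, this rule and the tests were chosen with earlier results of these data known.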

Additional observations from a re-analysis of the deposited data

Results flagged for a closer look

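Outside chromosomes 1 to 22, which the report covers, GSK 24 h records also overlapped at least 2 vehicle records. There were 119 on chromosome X (3.49% of its 3407 GSK 24 h records), 12 on chromosome Y (2.45% of 490) and 38 on haplotype, unplaced and other sequences (2.79% of 1363). Each number is above 3, the fixed limit for this flag. Passing it is not a test, since such records occurred in every pair of lists. Each share is below the 4.65% found on chromosomes 1 to 22. No cause was tested.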

How the results depend on the processing

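No paired analysis was possible because the 2 replicates of a group were merged into 1 list before deposit, which also means that neither replicate was left out. Of 50 values under alternatives, 20 stayed within the interval of the reported value (for the number of fused records, within 1.5 times). Adding chromosomes X and Y moved none. The cause of the other changes was not tested.

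With a -log10 q of at least 5 in every list, 3276 records were fused, 56.9% of them were joined at 4 h, the median gap was 138 bp and 94.9% had the summit in a vehicle record. Close vehicle gaps were then joined in 24.3% at 24 h and 24.1% at 4 h, and vehicle records joined 25.35% of GSK 24 h gaps. At 10, these values were 932, 61.8%, 140 bp, 97.4%, 16.5%, 19.5% and 32.7%. With lists of equal length, vehicle records joined 24.9% of GSK 24 h gaps. With an overlap of 50 bp, 51.7% of the fused records were joined at 4 h, vehicle gaps were joined in 26.7% at 24 h and 24.5% at 4 h, and GSK 24 h gaps in 20.5%. With records under 100 bp apart joined first, these were 51.7%, 25.4%, 23.9% and 20.5%, and the median gap was 193 bp. Widening the GSK 4 h records gave 57.3% of fused records and 27.3% of vehicle gaps joined at 4 h.

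After seeing the data, 3 stricter definitions were added. Where at least 50% of each vehicle record was covered, 53.4% were joined at 4 h and 93.1% had the summit in a vehicle record. Without places that shared a vehicle record with another GSK 24 h record, 53.8% were joined at 4 h. Allowing no further GSK 4 h record gave 43.9%. An effect of depth on which weak records were listed was not tested, and no list holds a gap under 52 bp.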
